A study of Mus musculus with 10 samples.

Results

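Long-chain fatty acids pass through a short chain of proteins in the cell, and the genes described here code for its steps: the intracellular carriers Fabp3, Fabp4, Fabp5 and Fabp7, the surface receptor Cd36, the activating enzyme Acsl1, the triglyceride synthases Dgat1 and Dgat2, the lipid droplet coat protein Plin2 and the droplet lipase Pnpla2. These 10 genes were chosen by name, with earlier results of these data known. A gene was followed through each array probe that the platform's annotation assigned to it alone. Of the 10, 9 had such a probe and Acsl1 was not analysed here. The 9 genes had 11 probes, of 19749 genes and 21259 single-gene probes in the whole table. Fabp3 and Fabp5 had 2 probes each. The 2 probes of a gene shared their annotated transcripts (4 accessions for Fabp3 and 5 for Fabp5) and are not independent replicates. Whether both probes read that gene alone is not given by the sources used here.

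Expression was measured on 10 microarrays of RNA from microglia, the resident macrophages of the brain, that had been sorted from male C57BL/6 mice aged 8 to 12 weeks. The mice either lacked Trem2 (Trem2-/-), a lipid-sensing receptor of microglia, or were wild type (WT). Mice of both genotypes received a diet with 0.2% cuprizone, a copper-binding compound toxic to oligodendrocytes that leads to loss of myelin, for 4 or 12 weeks (the cuprizone groups), or the same diet followed by 2 weeks on normal food (the recovery groups), and control mice received no cuprizone. The groups were thus Trem2-/- on cuprizone, Trem2-/- in recovery, Trem2-/- control, WT on cuprizone, WT in recovery and WT control. Each cuprizone and recovery group held 2 arrays, 1 per feeding time, and each control group 1 array. The sources used here do not state the Trem2 allele, the sorting markers or the number of animals behind an array. The labels name no separate animals, so the p-values below measure only the spread between these samples, part of which may be technical. In comparisons of these groups it is the spread between the 4- and 12-week arrays of a group, so it includes feeding time.

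Cells take up fatty acids in part through Cd36, and small soluble proteins of the Fabp family then carry them through the cytoplasm to membranes, organelles and nuclear receptors. Acyl-CoA synthetases such as Acsl1 activate them, Dgat1 and Dgat2 join them to diacylglycerol to make triglyceride, and the product is stored in droplets whose surface is covered by Plin2. Pnpla2 releases the fatty acids again. Phagocytes that clear myelin take in large amounts of cholesterol and fatty acids, and droplet-filled, foamy macrophages and microglia are a known feature of demyelinated tissue.

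Some facts of the whole data set bear on what follows. Array medians lay between 37.6 and 39.3 in linear intensity, and all values below are log2 of the intensity, on which the table's median is 5.27. A probe was tested when at least 2 arrays exceeded that median, which left 11706 probes and 10 of the 11 member probes; the Fabp4 probe lay below it on all 10 arrays. Trem2 measured 7.26 to 7.85 in Trem2-/- arrays and 10.66 to 10.81 in WT arrays; whether its probe lies in the deleted part is not given. Of the microglia markers, 11 of 12 were on the array and all 11 exceeded the table's median on every array. The sample names fall into 2 runs, the first with the controls and the 4-week arrays (6 arrays) and the second with the arrays titled 12 weeks (4 arrays). Feeding time and run cannot be told apart, and no control lies in the second run. The summed intensity of 8 neutrophil markers was 169 to 322 in the second run and 4494 to 13158 in the first. The labels of 1 Trem2-/- cuprizone array conflict, its title giving 12 weeks and its time field 4 weeks, and it was counted by its title.

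The promoters of Fabp3, Plin2 and Cd36 are shown because of their levels on cuprizone. Fabp3 probe 10508614 and Plin2 measured lower in Trem2-/- than in WT arrays there, while Cd36 did not separate the genotypes. Neither of these differences passed in limma without a feeding-time block (adjusted p = 0.08 and 0.32). On Fabp3 probe 10371502 the genotypes overlapped on cuprizone, as they did for Cd36. RefSeq (GRCm38.p6) gave windows for 6 of the 10 genes, each from 250 bases before to 50 bases after the gene's start; these 3 lie at chr4:130308488-130308787 (plus strand), chr4:86670010-86670309 (minus strand) and chr5:17835847-17836146 (minus strand) and are written 5′ to 3′. Capitals mark exact matches to the motifs searched on both strands.
Fabp3: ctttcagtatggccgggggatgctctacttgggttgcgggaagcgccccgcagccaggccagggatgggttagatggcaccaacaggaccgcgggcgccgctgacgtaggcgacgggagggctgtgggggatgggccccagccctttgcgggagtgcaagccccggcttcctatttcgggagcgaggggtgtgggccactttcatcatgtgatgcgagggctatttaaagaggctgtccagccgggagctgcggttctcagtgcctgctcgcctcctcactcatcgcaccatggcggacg
Plin2: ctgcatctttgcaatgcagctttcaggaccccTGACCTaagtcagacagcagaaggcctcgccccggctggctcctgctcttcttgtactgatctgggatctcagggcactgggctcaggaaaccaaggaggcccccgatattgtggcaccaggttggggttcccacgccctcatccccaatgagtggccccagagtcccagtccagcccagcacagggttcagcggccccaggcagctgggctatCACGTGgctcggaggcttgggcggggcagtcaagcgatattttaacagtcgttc
Cd36: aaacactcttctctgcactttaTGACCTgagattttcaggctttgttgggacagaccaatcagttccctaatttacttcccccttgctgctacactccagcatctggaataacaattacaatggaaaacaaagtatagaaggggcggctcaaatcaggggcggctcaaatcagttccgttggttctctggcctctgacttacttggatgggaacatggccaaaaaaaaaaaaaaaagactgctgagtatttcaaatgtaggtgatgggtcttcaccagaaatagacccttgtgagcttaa
The motifs were AGGTCA, the hexamer bound by PPAR, LXR and other nuclear receptors, found in 16.3% of all 32817 promoter windows; its direct repeats AGGTCANAGGTCA (0.0396%) and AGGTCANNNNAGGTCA (0.0152%), read by PPAR and LXR with their partner RXR; CACGTG, the E-box of MiT/TFE and USF factors (7.15%); GAGGAAGT, a PU.1 core (3.2%); and TATAAA (13.6%). The repeats contain the hexamer, so matches to them overlap. The Plin2 window held AGGTCA on the reverse strand from base -218 and CACGTG from base -4, counted from the gene's start. The Cd36 window held AGGTCA on the reverse strand from base -228, and the Fabp3 window held none of the 6 motifs. Fabp7 and Pnpla2, which also measured lower in both Trem2-/- arrays on cuprizone than in both WT ones, had windows that are not shown. That of Fabp7 held AGGTCA on the reverse strand from base -171, and that of Pnpla2 held none of the 6 motifs. Fabp5 had no window. GC content was 65% for Fabp3, 60.7% for Plin2 and 43% for Cd36, against a median of 52.7% over all windows. These are matches of letters in a window and do not show that a factor binds there.

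Fabp5, a carrier of long-chain fatty acids found in macrophages and many epithelia, rose in WT microglia on cuprizone and was lower in Trem2-/- microglia on the same diet. On probe 10490838 it measured 5.33 and 5.73 in the 4- and 12-week Trem2-/- arrays on cuprizone and 5.21 in the Trem2-/- control, against 8.52 and 8.60 in the WT arrays on cuprizone and 5.39 in the WT control. On probe 10585699 the values were 6.61 and 6.70 in Trem2-/- arrays on cuprizone and 6.45 in the Trem2-/- control, against 9.16 and 8.47 in WT arrays on cuprizone and 6.05 in the WT control. Both WT arrays on cuprizone were far above every Trem2-/- array on either probe, and the Trem2-/- control differed from the WT control by -0.18 on the first probe and 0.40 on the second. On probe 10490838 both controls and the 4-week Trem2-/- cuprizone array lay near the table's median of 5.27, so its differences can be compressed.

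In limma, the WT rise over control was 3.17 ± 0.40 (log2, SE; 9.01-fold, adjusted p = 0.038) on probe 10490838 and 2.76 ± 0.33 (6.79-fold, adjusted p = 0.037) on probe 10585699. The same contrast in Trem2-/- microglia gave 0.32 ± 0.40 and 0.20 ± 0.33, both with an adjusted p of 1. Between genotypes on cuprizone, Fabp5 was lower in Trem2-/- microglia by -3.03 ± 0.32 (8.15-fold, adjusted p = 0.0098) and -2.16 ± 0.27 (4.47-fold, adjusted p = 0.021). The difference between the 2 responses, tested as an interaction, was -2.85 ± 0.56 and -2.56 ± 0.46 and did not pass (adjusted p = 0.72 and 0.61).

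The mean log2 level of 7 endothelial markers moved with Fabp5, at r = 0.92 and 0.96 with its probes 10490838 and 10585699 over the 10 arrays, which share diet and run, and at 0.87 with Fabp3 probe 10508614. Among these markers Flt1, a receptor of vascular growth factors, measured 4.39 and 4.30 in the 4- and 12-week Trem2-/- arrays on cuprizone and 4.55 in the Trem2-/- control, against 6.20 and 5.77 in WT arrays on cuprizone and 4.33 in the WT control. Without Flt1, a choice made after the values were seen, r was 0.02, 0.07 and 0.06. Pecam1, the only marker above the table's median on every array, went the other way, at -0.87, -0.80 and -0.71 with these probes in the same order. Slco1a4 correlated with them at 0.83, 0.73 and 0.84 and Cldn5 at 0.41, 0.40 and 0.16. The values of Kdr, Tek and Cdh5 lay between -0.08 and 0.23. Of the 7 markers 5 were below the table's median on every array, the tight-junction gene Cldn5 among them. The markers' summed intensity was 180 and 195 in Trem2-/- arrays on cuprizone and 194 in the Trem2-/- control, against 213 and 191 in WT arrays on cuprizone and 169 in the WT control. The part of endothelial cells in the Fabp5 and Fabp3 values was not tested.

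These Fabp5 calls rest on few arrays. With each of the 8 cuprizone and recovery arrays left out in turn, the WT rise on probe 10490838 stayed between 3.13 and 3.21 and passed in 4 of 8 fits; it missed without either Trem2-/- cuprizone array (adjusted p = 0.092 for each) and without the 4- or the 12-week WT cuprizone array (0.2 and 0.22). On probe 10585699 it ranged from 2.42 to 3.10 and passed in 2 of 8 fits, those without a Trem2-/- recovery array. It missed without either Trem2-/- cuprizone array (adjusted p = 0.092 for each), the 4- or the 12-week WT cuprizone array (0.13 and 0.054) or either WT recovery array (0.055 for each). The genotype difference on cuprizone ranged from -3.23 to -2.83 on probe 10490838 and from -2.50 to -1.82 on probe 10585699, and passed in 4 and 5 of 8 fits. On probe 10490838 it missed without any of the 4 cuprizone arrays (adjusted p = 0.084 to 0.11), and on probe 10585699 without the 4- or the 12-week Trem2-/- cuprizone array (0.17 and 0.22) or the 4-week WT one (0.13).

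In recovery, Fabp5 on probe 10490838 measured 6.04 and 5.33 in the 4- and 12-week Trem2-/- arrays and 7.50 and 8.26 in the WT arrays, so the genotypes did not overlap. Their difference was -2.19 ± 0.32, with an adjusted p of 0.22 in limma; with the titled feeding time as a block the adjusted p was 0.047, and 0.1 when the array with conflicting labels was counted as 4 weeks. On probe 10585699 recovery arrays measured 7.09 and 6.62 in Trem2-/- microglia and 7.89 and 7.90 in WT microglia, a difference of -1.04 ± 0.27 (adjusted p = 1). WT recovery arrays lay above the WT control by 2.49 ± 0.40 and 1.84 ± 0.33 (adjusted p = 0.45 and 0.59). Relative to WT cuprizone arrays they differed by -0.68 ± 0.32 and -0.92 ± 0.27 (adjusted p = 1 for both).

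**Figure D1:**
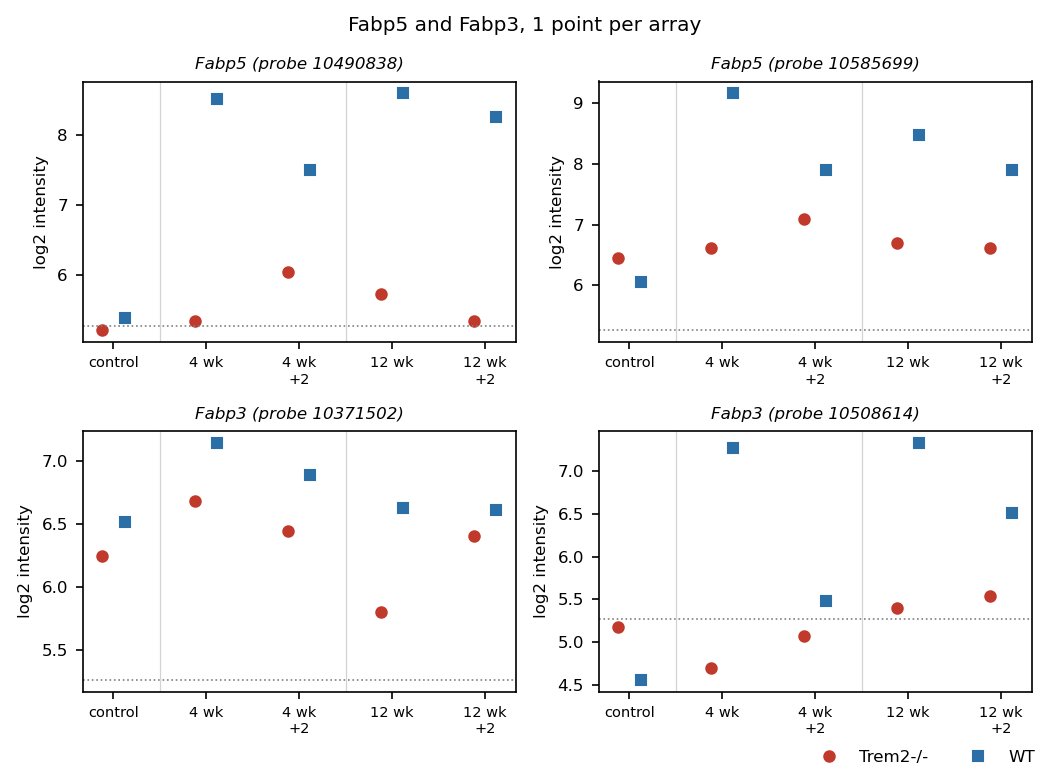
Log2 intensity (vertical axis) of the 2 Fabp5 and 2 Fabp3 probes on each of the 10 arrays, by diet (horizontal axis: control, 4 weeks of cuprizone, 4 weeks and 2 weeks of recovery, 12 weeks, 12 weeks and 2 weeks of recovery), with circles for Trem2-/- and squares for WT and the dotted line at the table's median of 5.27. On both Fabp5 probes the WT cuprizone and recovery arrays lie above the Trem2-/- arrays of the same diet, while the control arrays of the genotypes lie close together.

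Fabp3, the heart-type carrier of muscle and brain, differed between its 2 probes. On probe 10508614 it measured 4.70 and 5.40 in the 4- and 12-week Trem2-/- arrays on cuprizone and 5.18 in the Trem2-/- control, against 7.28 and 7.33 in WT arrays on cuprizone and 4.56 in the WT control. In recovery it measured 5.07 and 5.54 in Trem2-/- arrays and 5.48 and 6.51 in WT arrays. The WT cuprizone arrays were the highest of the 10 (7.30 ± 0.04, SD, n = 2), and the recovery arrays of the genotypes overlapped. Both controls lay below the table's median, so the differences of this dim probe can be compressed.

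The difference of Fabp3 on probe 10508614 between WT cuprizone and control was 2.74 ± 0.45 (adjusted p = 0.12), and between Trem2-/- and WT on cuprizone -2.25 ± 0.37 (adjusted p = 0.08). With the titled feeding time as a block they were 2.46 ± 0.28 (adjusted p = 0.0055) and -2.25 ± 0.22 (adjusted p = 0.0014), so the call depends on the block. In Trem2-/- microglia the cuprizone difference was -0.13 ± 0.45 (adjusted p = 1), and the interaction was -2.87 ± 0.64 (adjusted p = 1). The genotype difference in recovery was -0.69 ± 0.37 (adjusted p = 1).

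On its other probe, 10371502, Fabp3 measured 6.68 and 5.80 in Trem2-/- arrays on cuprizone and 6.25 in the Trem2-/- control, against 7.14 and 6.63 in WT arrays on cuprizone and 6.52 in the WT control. Recovery arrays measured 6.44 and 6.41 in Trem2-/- microglia and 6.89 and 6.62 in WT microglia. The WT difference between cuprizone and control was 0.36 ± 0.38 on this probe (adjusted p = 1), against 2.74 on the other, and the 2 probes correlated at r = 0.44 over the 10 arrays. The RefSeq table lists a Fabp3 pseudogene, Fabp3-ps1, and a Fabp5 one, Fabp5l2, and the sources used here do not say whether a probe reads them.

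Fabp7, the brain-type carrier of radial glia and astrocytes, was low and variable. It measured 5.44 and 5.0 in the 4- and 12-week Trem2-/- arrays on cuprizone, 5.95 and 5.01 in the Trem2-/- recovery arrays and 6.42 in the Trem2-/- control, against 6.36 and 5.98 in WT arrays on cuprizone, 6.89 and 5.0 in the WT recovery arrays and 5.33 in the WT control. The 2 controls thus differed by 1.09, with Trem2-/- higher, and the genotypes were ordered the other way on cuprizone. The cuprizone difference was -1.20 ± 0.70 in Trem2-/- microglia and 0.84 ± 0.70 in WT microglia, and the interaction was -2.04 ± 0.99, none of which passed (adjusted p = 1 for all 3). Of 8 astrocyte and radial glia markers, 1 exceeded the table's median on every array and 3 on none. The markers' summed intensity was 373 to 465 in Trem2-/- arrays on cuprizone and 592 in the Trem2-/- control, against 348 to 415 in WT arrays on cuprizone and 582 in the WT control. Over the 10 arrays, which share diet and run, Fabp7 correlated with the mean log2 level of these markers at r = 0.56. The value was 0.71 for neutrophil markers and 0.71 for monocyte markers, and the lowest over all marker lists was -0.47, for adipocyte markers. The part of any of these cells in the Fabp7 values was not tested.

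Fabp4, the carrier of adipocytes and some macrophages, measured 3.19 to 3.70 in Trem2-/- arrays and 3.25 to 3.47 in WT arrays, below the table's median on all 10. All 4 adipocyte markers on the array (Fabp4 is not among them) were also below that median on every array. Fabp4 lies in the same cluster as Fabp5 in RefSeq's gene order, with Pmp2 and Fabp9 between them and Fabp12 beyond Fabp4, and these 3 carriers were likewise dim, with ranges of 2.97 to 3.54, 3.01 to 3.47 and 3.81 to 4.66. Among the probes of this cluster, only those of Fabp5 exceeded the table's median on any array.

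Cd36, a scavenger receptor that takes up fatty acids and oxidised lipoproteins, measured higher on cuprizone than in the control in both genotypes, and the genotypes overlapped. It measured 6.79 and 6.06 in the 4- and 12-week Trem2-/- arrays on cuprizone and 5.17 in the Trem2-/- control, against 7.15 and 6.01 in WT arrays on cuprizone and 5.18 in the WT control. Recovery arrays measured 6.72 and 5.92 in Trem2-/- microglia and 6.49 and 6.06 in WT microglia. The 4-week arrays exceeded the 12-week ones in each of the 4 groups.

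The Cd36 difference between cuprizone and control was 1.26 ± 0.54 in Trem2-/- microglia and 1.41 ± 0.54 in WT microglia (adjusted p = 1 for both). With the feeding-time block the WT value was 1.79 ± 0.24 (adjusted p = 0.011), and when the array with conflicting labels was counted as 4 weeks the adjusted p was 0.12. The block of titled feeding time moves the cuprizone difference of both genotypes by the same amount, so the genotypes stay as close as without it. The Trem2-/- difference did not pass with either block, so the WT call does not show a rise in WT microglia alone. Trem2-/- differed from WT by -0.16 ± 0.44 on cuprizone (95% interval -1.17 to 0.86) and by 0.05 ± 0.44 in recovery (-0.97 to 1.06).

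Markers of border macrophages, the macrophages of the meninges and perivascular spaces, moved with Cd36. Their 8 markers were all on the array and 7 exceeded the table's median on every array. Their summed intensity was 3960 and 2033 in the 4- and 12-week Trem2-/- arrays on cuprizone, 3891 and 1960 in the Trem2-/- recovery arrays and 1256 in the Trem2-/- control, against 4507 and 2004 in WT arrays on cuprizone, 3840 and 1776 in the WT recovery arrays and 1778 in the WT control. The sum was high on the 4-week arrays of both genotypes, as Cd36 was. Log2 of the sum and Cd36 correlated at r = 0.92 over the 10 arrays, at 0.87 without the 2 arrays farthest from the median sum and at 0.97 over the 6 arrays of the first run, and over the 4 arrays of the second run r was -0.22; the values over part of the arrays were added after the data were seen. These arrays share run and diet, and the part of border macrophages in the Cd36 values was not tested. In such sorted bulk samples, fewer cells of a type and less RNA per cell cannot be told apart.

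**Figure D2:**
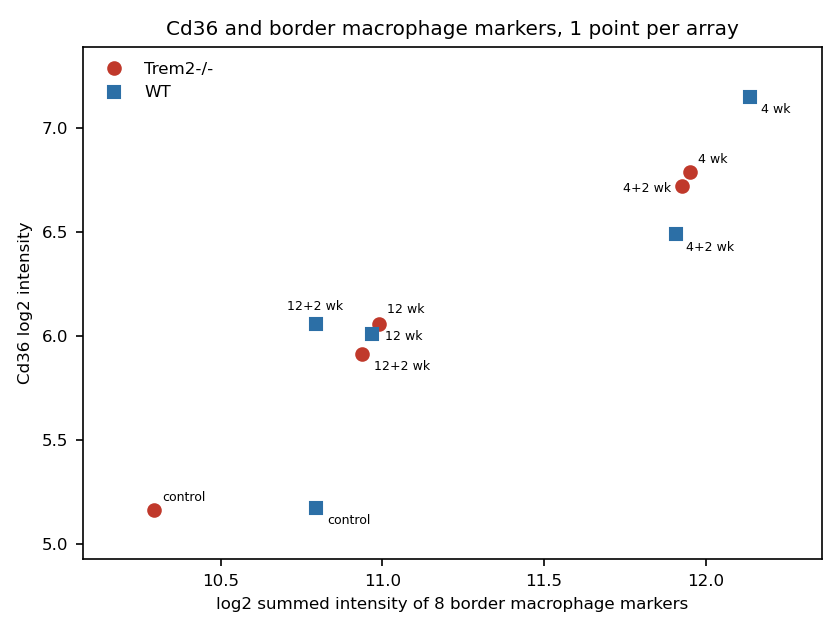
Cd36 log2 intensity (vertical axis) against log2 of the summed linear intensity of 8 border macrophage markers (horizontal axis), 1 point per array, with circles for Trem2-/-, squares for WT and the diet beside each point. The 4-week arrays lie at the upper right in both genotypes, at 6.49 to 7.15 for Cd36, and the controls lie lowest, at 5.17 and 5.18.

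The triglyceride synthases did not pass in any comparison. Dgat1 measured 6.92 and 7.14 in the 4- and 12-week Trem2-/- arrays on cuprizone and 7.10 in the Trem2-/- control, against 7.06 and 6.72 in WT arrays on cuprizone and 6.80 in the WT control. Dgat2 measured 5.16 and 5.47 in Trem2-/- arrays on cuprizone and 4.87 in the Trem2-/- control, against 5.0 and 5.64 in WT arrays on cuprizone and 5.09 in the WT control. The genotypes overlapped for both genes. The WT difference between cuprizone and control was 0.08 ± 0.29 for Dgat1 (95% interval -0.60 to 0.76) and 0.23 ± 0.30 for Dgat2 (-0.46 to 0.92). In recovery Dgat1 measured 6.96 and 7.53 in Trem2-/- arrays and 7.31 and 7.26 in WT arrays, and Dgat2 4.90 and 4.83 in Trem2-/- arrays and 5.24 and 5.33 in WT arrays. Dgat2 did not overlap between genotypes there, with a difference of -0.42 ± 0.24 (adjusted p = 1); its probe exceeded the table's median on 3 of 10 arrays.

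Plin2, which coats lipid droplets and follows their amount in most cells, measured 7.33 and 7.51 in the 4- and 12-week Trem2-/- arrays on cuprizone and 6.90 in the Trem2-/- control, against 8.27 and 8.86 in WT arrays on cuprizone and 6.87 in the WT control. The controls differed by 0.03, and both WT cuprizone arrays lay above both Trem2-/- ones. In recovery Plin2 measured 7.69 and 8.21 in Trem2-/- arrays and 7.76 and 8.07 in WT arrays, so the genotypes overlapped. From cuprizone to recovery, Plin2 was thus higher in both Trem2-/- pairs of arrays and lower in both WT pairs.

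The Plin2 difference between WT cuprizone and control was 1.70 ± 0.33 (3.25-fold, adjusted p = 0.22), and with the feeding-time block 1.5 ± 0.21 (adjusted p = 0.014). Between Trem2-/- and WT on cuprizone it was -1.15 ± 0.27 (2.21-fold, adjusted p = 0.32), and with the block the same difference had an adjusted p of 0.011. With the array of conflicting labels counted as 4 weeks in the block, the WT value was 1.47 ± 0.23 (adjusted p = 0.049) and the genotype difference was -0.91 ± 0.19 and did not pass (adjusted p = 0.12). In Trem2-/- microglia the cuprizone difference was 0.52 ± 0.33 (adjusted p = 1). In recovery the genotypes differed by 0.03 ± 0.27, with a 95% interval of -0.59 to 0.66. Recovery minus cuprizone was 0.53 ± 0.27 in Trem2-/- microglia and -0.65 ± 0.27 in WT microglia. The difference between these changes, a contrast added after the values were seen, was 1.18 ± 0.39 (unadjusted p = 0.015, adjusted p = 1).

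Pnpla2, the lipase also called ATGL that starts the breakdown of stored triglyceride, measured 7.10 and 7.36 in Trem2-/- arrays on cuprizone and 7.16 in the Trem2-/- control, against 7.43 and 7.73 in WT arrays on cuprizone and 7.17 in the WT control. Recovery arrays measured 7.13 and 7.16 in Trem2-/- microglia and 7.58 and 7.29 in WT microglia. Trem2-/- was the lower genotype in all 5 conditions, with differences of -0.44 to -0.01. Over the 5 conditions the difference was -0.26 ± 0.10 (unadjusted p = 0.025, adjusted p = 0.39).

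**Figure D3:**
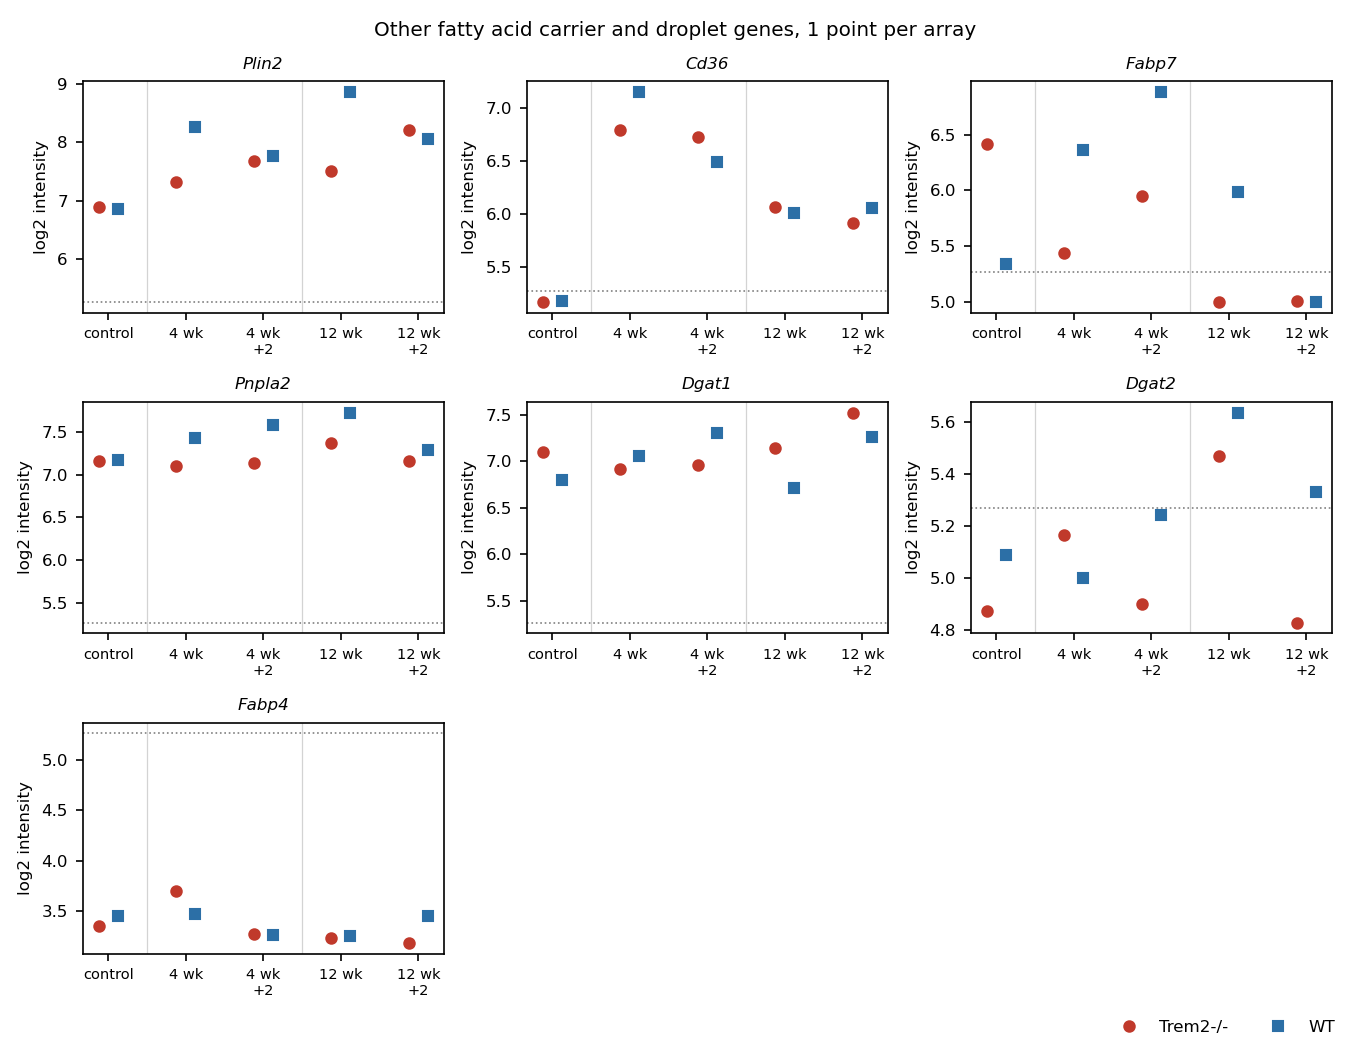
Log2 intensity (vertical axes) of Plin2, Cd36, Fabp7, Pnpla2, Dgat1, Dgat2 and Fabp4 on each of the 10 arrays, by diet (horizontal axes as control, 4 weeks, 4 weeks and 2 of recovery, 12 weeks, 12 weeks and 2 of recovery), with circles for Trem2-/- and squares for WT and the dotted line at the table's median of 5.27. Plin2 separates the genotypes on cuprizone and not in recovery, the genotypes overlap for Cd36, and Fabp4 stays below the line.

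Across the member probes, the WT response to cuprizone passed at 2 of 10 tested probes, both of Fabp5, where 0.128% of all 11706 tested probes passed (15 probes, all higher). All 10 measured higher on cuprizone than in the WT control, with a median of 1.12, against 51.7% of all probes and a median of 0.01. These differences share 1 WT control array, and Fabp3 and Fabp5 enter with 2 probes each. The members were chosen with earlier results of these data known, so the shares here and below are no test of the list. With the feeding-time block 5 member probes passed, where 97 of all 11706 tested probes did. They were both of Fabp5, Fabp3 probe 10508614, Plin2 and Cd36. Cd36 missed when the array with conflicting labels was counted as 4 weeks. In Trem2-/- microglia 0 of 10 passed in limma, as did 0% of all probes, of which 117 had an unadjusted p under 0.05; 6 members measured higher and 4 lower, with a median of 0.14. Cd36 was the member with an unadjusted p under 0.05 there, and its difference was close to that in WT microglia (1.26 ± 0.54 against 1.41 ± 0.54).

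Between genotypes on cuprizone, 2 of 10 member probes passed, both lower in Trem2-/- microglia, and 0.29% of all probes passed in either direction (0.282% lower, 0.00854% higher). With the block 4 passed, where 144 of all tested probes did. They were both of Fabp5, Fabp3 probe 10508614 and Plin2. Plin2 missed when the conflicting array was counted as 4 weeks. At 6 of 10 member probes both Trem2-/- arrays lay below both WT arrays, where 15.5% of all tested probes did so. These were both of Fabp5, Fabp3 probe 10508614, Fabp7, Plin2 and Pnpla2. Without cuprizone, the Trem2-/- control differed from the WT control by 0.62 for Fabp3 probe 10508614 and by 0.03 for Plin2, with 1 array each and no test.

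In recovery 0 of 10 member probes passed between genotypes in limma, against 0.0256% of all probes (226 probes had an unadjusted p under 0.05). With the block Fabp5 probe 10490838 passed, where 10 of all tested probes did, though not with the conflicting array counted as 4 weeks. At 5 of 10 member probes both Trem2-/- recovery arrays lay below both WT ones, where 12.4% of all probes did so. These were both of Fabp5, Fabp3 probe 10371502, Pnpla2 and Dgat2. Fabp3 probe 10508614, Fabp7 and Plin2, which did not overlap on cuprizone, overlapped here.

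Neither genotype gave a call among the members between recovery and cuprizone or between recovery and control (0 of 10 in each of these 4 comparisons, and 0% of all probes in limma). At an unadjusted p under 0.05 the whole table held 69 and 318 probes for recovery against cuprizone in Trem2-/- and WT microglia, and 172 and 253 for recovery against control. The interactions of genotype with the cuprizone response and with the change at recovery likewise gave 0 of 10 and 0% (168 and 173 probes at an unadjusted p under 0.05). Comparisons with the same control or cuprizone arrays share them, so their values are not separate evidence.

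**Figure D4:**
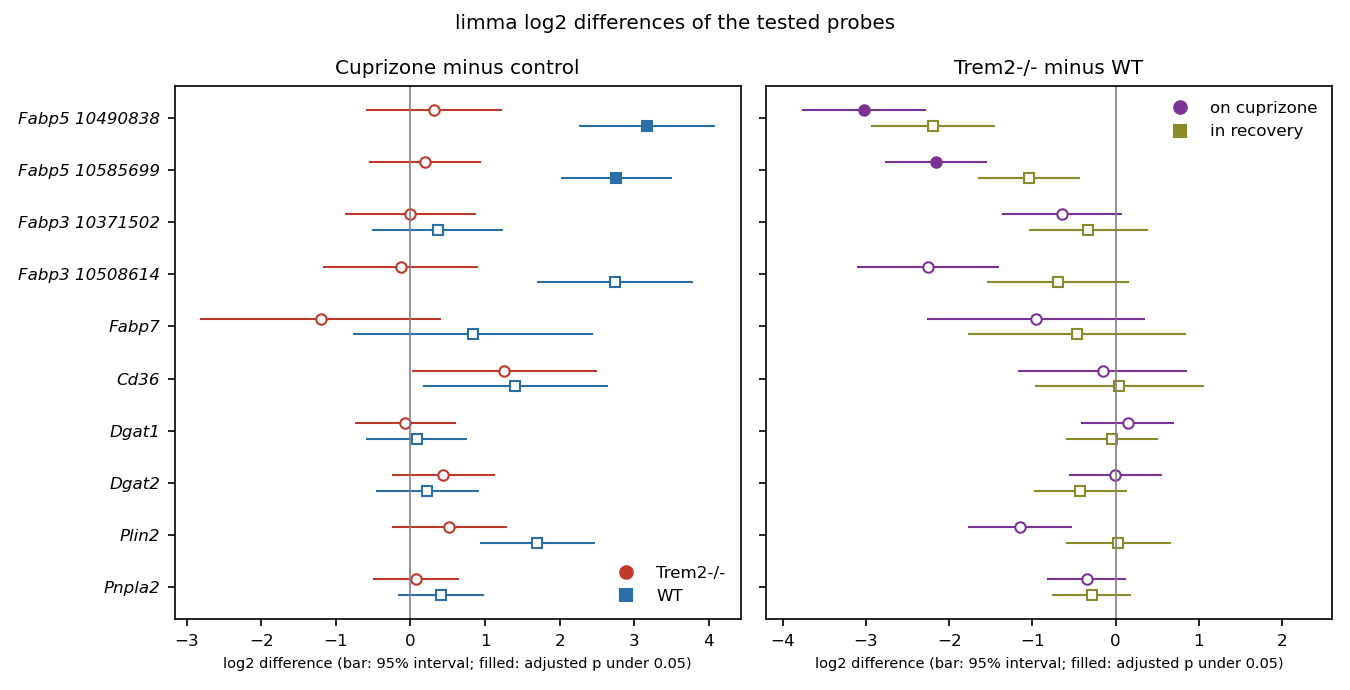
limma log2 differences (horizontal axes) with 95% intervals of the 10 tested member probes (vertical axis), on the left cuprizone minus control in Trem2-/- (circles) and WT (squares) and on the right Trem2-/- minus WT on cuprizone (circles) and in recovery (squares). Filled symbols passed at an adjusted p under 0.05, which the 2 Fabp5 probes did for WT cuprizone and for the genotypes on cuprizone.

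With the genotypes compared over the 5 diet conditions as pairs, 0 of 10 member probes passed, against 0.171% of all probes (0.0598% higher, 0.111% lower; 1242 had an unadjusted p under 0.05). Fabp5 differed by -2.12 ± 0.38 (adjusted p = 0.083) and -1.20 ± 0.33 (adjusted p = 0.24). Without the control pair, the values were -2.61 (adjusted p = 0.0049) and -1.60 (adjusted p = 0.026). Fabp3 differed by -0.44 ± 0.11 on probe 10371502 (adjusted p = 0.18) and by -1.05 ± 0.37 on probe 10508614 (adjusted p = 0.37). Cd36 differed by -0.05 ± 0.10. Trem2-/- was lower in all 5 conditions at 3 of 10 member probes (Fabp5 probe 10490838, Fabp3 probe 10371502 and Pnpla2), where 6.17% of all probes were.

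By feeding time, 4 of 10 member probes passed between the arrays titled 12 weeks and those titled 4 weeks, with the group as a block, where 20% of all tested probes passed (7.88% higher, 12.2% lower). Cd36 was lower at 12 weeks by -0.78 ± 0.13 (adjusted p = 0.0056), as was Fabp7 by -0.91 ± 0.23 (adjusted p = 0.024). Fabp3 probe 10508614 was higher by 0.56 ± 0.16 (adjusted p = 0.036) and Plin2 by 0.40 ± 0.12 (adjusted p = 0.04). Leaving out either array of a group removes the group's whole pair from this comparison, since its other array then has no partner, so there are 4 such fits. Cd36 passed in 4 of 4. Fabp7 passed in 3 and missed without the Trem2-/- recovery pair (adjusted p = 0.089). Fabp3 passed in 1, without the WT cuprizone pair, and missed in the others (0.098 to 0.11), and Plin2 passed in 1, without the Trem2-/- cuprizone pair, and missed in the others (0.073 to 0.15). With the array of conflicting labels counted as 4 weeks, the adjusted p was 0.083 for Cd36, 0.07 for Fabp7, 0.2 for Fabp3 and 0.096 for Plin2. The Fabp5 probes differed by 0.13 ± 0.21 and -0.26 ± 0.15 (adjusted p = 0.68 and 0.23). The summed astrocyte and radial glia markers were 348 to 394 in the second run and 415 to 634 in the first, and the summed monocyte markers 77.9 to 96.9 and 167 to 319. The parts of run and of these cells were not tested.

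The other genes of fatty acid handling were followed in 7 lists, with the brightest probe per gene. Of 112 entries 103 were on the array and 70 were tested, and 0 of 70 passed in any comparison other than that of feeding times. In WT microglia on cuprizone 46 of the 70 measured higher than in the control and 24 lower, with a median of 0.08. Of all tested probes 51.7% measured higher, with a median of 0.01. All WT differences, also those by list below, share the 1 WT control array. Between Trem2-/- and WT on cuprizone 25 measured higher and 45 lower, with a median of -0.06. Of all tested probes 49.8% measured higher there, with a median of -0.00.

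Lipolysis genes had a median of 0.11 in WT microglia on cuprizone, with 7 of 10 higher. Nceh1, a neutral cholesterol ester hydrolase of macrophages, measured 6.17 and 5.25 in the 4- and 12-week Trem2-/- arrays on cuprizone and 5.55 in the Trem2-/- control, against 8.03 and 7.31 in WT arrays on cuprizone and 5.85 in the WT control. Its WT difference was 1.83 ± 0.43 (adjusted p = 0.42) and the genotype difference on cuprizone -1.96 ± 0.35 (adjusted p = 0.11). With the feeding-time block these were 2.11 ± 0.25 (adjusted p = 0.007) and -1.96 ± 0.20 (adjusted p = 0.0017), and Nceh1 was the pathway gene that passed with the block. When the array with conflicting labels was counted as 4 weeks, the WT difference was 2.05 ± 0.37 and did not pass (adjusted p = 0.1), and the genotype difference was -2.18 ± 0.31 (adjusted p = 0.028). The block fits of the pathway genes were added after the values were seen. Abhd5, the activator of Pnpla2, differed by 0.40, and Mgll, the monoglyceride lipase, by -0.38 in WT microglia. Abhd5 measured 7.06 and 7.82 in the 4- and 12-week WT arrays on cuprizone and 7.04 in the WT control. Mgll measured 7.49 and 7.05 in the same 2 arrays and 7.65 in the WT control. The 12-week arrays are of the second run, which holds no control.

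Fatty acid oxidation genes had a median of 0.12, with 14 of 21 higher, led by the mitochondrial thiolase Acaa2 at 1.07 ± 0.33 (adjusted p = 0.79), Hadh at 0.58 and Etfa at 0.49. Droplet coat and biogenesis genes had a median of 0.10, with 9 of 13 higher. Hilpda, a droplet protein that inhibits Pnpla2, differed by 0.85 ± 0.63, G0s2, a further inhibitor of it, by -0.69 and Lpcat2 by -0.50. In the 4- and 12-week WT arrays on cuprizone and the WT control, Hilpda measured 6.01, 7.16 and 5.74. G0s2 measured 6.34, 5.89 and 6.81 in the same order, and Lpcat2 11.32, 10.77 and 11.54. Acyl-CoA synthetases and thioesterases had a median of 0.02, with 5 of 8 higher, and Acot9, Acss1 and Acot13 differed by 1.19, -0.56 and 0.52. Fatty acid binding and uptake genes had a median of 0.11, with 4 of 6 higher, and Dbi, Slc27a1 and Scp2 differed by 0.29, 0.25 and 0.22. Triglyceride and sterol ester synthesis had a median of 0.07, with 5 of 8 higher, and Agpat5, Gpat4 and Agpat1 differed by 0.17, 0.15 and 0.10. The PPAR regulation list had a median of -0.07, with 2 of 4 higher, and Rxrb, Med1 and Rxra differed by -0.20, -0.14 and 0.05. None of these passed.

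Between feeding times 15 of the 70 pathway genes passed, 6 higher and 9 lower at 12 weeks. With 20% of all tested probes called in the same comparison (7.88% higher, 12.2% lower), that share is close to the whole table's and is no result about these genes. The higher ones were Acot9 (1.22), Rab18 (1.04), Hilpda (0.98), Etfdh (0.45), Plin3 (0.44) and Acbd3 (0.42). The lower ones were Acss1 (-0.74), Ech1 (-0.70), G0s2 (-0.61), Nceh1 (-0.56), Lipa (-0.53), Mgll (-0.48), Lpcat2 (-0.47), Acaa1a (-0.40) and Bscl2 (-0.39). Hilpda measured 6.88 and 6.69 in the 12-week Trem2-/- cuprizone and recovery arrays and 7.16 and 6.69 in the WT ones, against 5.89 and 5.87 at 4 weeks in Trem2-/- arrays and 6.01 and 5.74 in WT arrays. All 4 arrays of 12 weeks lay above all 4 of 4 weeks. The share of all tested probes that separate this way was not computed, and feeding time and run cannot be told apart.

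The members fell into loose sets by their pattern over the 10 arrays, which share diet and run and are described here without a test. The 2 Fabp5 probes correlated at r = 0.95, Fabp3 probe 10508614 with them at 0.89 and 0.91 and with Plin2 at 0.85, and Plin2 with the Fabp5 probes at 0.76 and 0.78. Cd36 correlated with Plin2 at 0.44 and Fabp7 with Plin2 at 0.03. For the brightest probe of each member that passed in a comparison, the genes with the most similar levels were listed. For Fabp5 they were Gpnmb (0.99), a glycoprotein of lipid-laden phagocytes, Flt1 (0.97), the apolipoprotein Apoc1 (0.97), Fam20c (0.96) and Tmem205 (0.96). Flt1 is among the endothelial markers described beside Fabp5.

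For Plin2 the 5 most similar genes were Lilr4b (0.97), Lilrb4a (0.96), Trim25 (0.95), Rpl7l1 (0.95) and AI504432 (0.94). For Cd36 they were Clec4n (0.96), Mpp1 (0.95), Ifi203 (0.94), Iqgap2 (0.92) and the chemokine Ccl12 (0.90). For Fabp7 they were Zfp704 (0.93), Pa2g4 (0.92), Add3 (0.91), Kat8 (0.91) and Gart (0.90). For Fabp3 probe 10371502 they were Dnase1l1 (0.96), Tbx6 (0.95), Csf2ra (0.94), Iqgap1 (0.94) and Stxbp2 (0.93). This is the brighter Fabp3 probe but not the one that passed, which was 10508614. No gene appeared in more than 1 of these lists.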

How the data were processed

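The authors deposited 1 linear intensity per probe for each array, and how they corrected, summarized and normalized it is unstated in the labels. The steps below were computed from that table. Log2 was taken with no further scaling. The platform's annotation tied 21259 of the 24567 probes to a single gene and 1274 to several, and 2034 are unnamed here. limma 3.58.1 in R 4.3.3 was fitted to the 11706 single-gene probes with at least 2 arrays above the table's median, with Benjamini-Hochberg adjustment over all of them and a threshold of 0.05; it was checked on simulated data. A first model held 6 group means (10 arrays, 4 residual degrees of freedom), whose spread comes from the 4- and 12-week arrays within groups, and a lone control array is assumed to vary like the other groups. The genotypes were also compared over 5 conditions with the condition as a block (4 residual degrees of freedom), and feeding times within the 4 groups over 8 arrays (3 residual degrees of freedom). The titles pair the arrays of different groups by feeding time: their 12-minus-4-week differences correlated at r = 0.52 to 0.61 over the 6 pairs of groups, so values with that block, controls placed beside the 4-week arrays, are given where they change a call.

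The members, the 7 pathway lists and the 10 marker lists were chosen with earlier results of these data known. Named were all probes of the 10 listed genes, each pathway gene that passed, the 3 pathway genes per list with the largest difference between WT cuprizone and control, and the 5 genes whose levels correlated best with the brightest probe of each member that passed in a comparison. The alternatives tried were other filters, the brightest probe per gene, median and quantile scaling, log2(value + 32), a mean-variance trend, the blocks, the conflicting time label and leaving out each array. Array number limits the precision.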

Additional observations from a re-analysis of the deposited data

Results flagged for a closer look

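At 4 genes, in a single comparison each, both pairs of Trem2-/- arrays moved one way and both pairs of WT arrays the other. The share of all tested probes that do so was not computed, so the count is no result about these genes. For Fabp7, cuprizone minus control was -0.98 and -1.43 (log2, 4 and 12 weeks) in Trem2-/- arrays and 1.03 and 0.65 in WT arrays; both pairs of a genotype share its control array, and the interaction in limma was -2.04 ± 0.99 (adjusted p = 1). For Fabp3 on probe 10508614, recovery minus cuprizone was 0.37 and 0.14 in Trem2-/- arrays and -1.79 and -0.82 in WT arrays, with an interaction of 1.56 ± 0.52 (adjusted p = 1). For Plin2, recovery minus cuprizone was 0.36 and 0.70 in Trem2-/- arrays and -0.50 and -0.80 in WT arrays, with an interaction of 1.18 ± 0.39 (adjusted p = 1). For Dgat1, 12 minus 4 weeks was 0.22 on cuprizone and 0.57 in recovery in Trem2-/- arrays and -0.34 and -0.045 in WT arrays; this difference between genotypes was not tested. No group held the 4 or more arrays needed to look for outlying values.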

How the results depend on the processing

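The count of member probes that passed moved with the processing. For WT cuprizone against control (2 probes) it was 0 when all 10 arrays had to exceed the table's median, a filter that removes Fabp5 probe 10490838, 1 with the brightest probe per gene, which drops that probe by construction, 1 with quantile normalization, 5 with the replicate block of titled feeding time, 4 when that block counted the conflicting array as 4 weeks, and 0 to 2 with 1 array left out. For Trem2-/- against WT on cuprizone (2) it was 0 with the stricter filter, 1 with the brightest probe, 4 with the replicate block, 3 with the block and the other label, and 0 to 3 with 1 array left out. For Trem2-/- against WT in recovery (0) the replicate block gave 1. Over 5 conditions (0), log2(value + 32) and the mean-variance trend gave 1 each, and leaving out a pair gave 0 to 2. For 12 against 4 weeks (4) the stricter filter gave 2, the conflicting array as 4 weeks 0, and leaving out an array, which removes its whole pair, 1 to 3. Both blocks changed no member call in the other comparisons.

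Over all tested probes the counts moved by more than 1.5 times as follows. WT cuprizone against control (15) gave 0 with the stricter filter, 9 with quantile normalization, 97 with the block, 33 with the block and the other label, and 2 to 13 with an array left out. Trem2-/- against WT on cuprizone (34) gave 3 with the stricter filter, 144 with the block and 0 to 39 with an array left out. Trem2-/- against WT in recovery (3) gave 1 with the stricter filter, 10 and 8 with the blocks and 0 to 3 with an array left out. WT recovery against control (0) gave 3 and 2 with the blocks, Trem2-/- recovery against control (0) gave 4 and Trem2-/- cuprizone against control (0) gave 1 with the block. The interaction (0) gave 1 without a filter or with the brightest probe, and 2 and 1 with the blocks. Over 5 conditions (20) it was 34 with log2(value + 32), 67 with the trend, 7 without the block and 8 to 92 with a pair left out. For 12 against 4 weeks (2347) it was 162 with the other label and 1010 to 1691 with a pair left out.

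Of 1866 distinct alternative fits of single member probes, 1749 kept direction and side of the threshold, 32 lost a call, 16 gained one, 69 had no call and the opposite sign, and 0 reversed a call. Causes were not tested beyond those named. Signals near the table's median limit what the arrays can resolve. This holds for Dgat2, Fabp7 and the controls of Cd36, Fabp3 probe 10508614 and Fabp5 probe 10490838.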

Other observations

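Most markers of oligodendrocytes, their precursors, neurons and endothelial cells were dim. Below the table's median on every array were 4 of 7, 3 of 5, 6 of 8 and 5 of 7 of them. The oligodendrocyte markers Mbp (5.89 to 6.71) and Cnp (6.77 to 7.61) exceeded that median on every array. The summed intensity of 7 oligodendrocyte markers was 275 to 330 in Trem2-/- arrays and 305 to 426 in WT arrays, that of 5 oligodendrocyte precursor markers 116 to 154 in Trem2-/- arrays and 130 to 155 in WT arrays, and that of 8 neuronal markers 177 to 248 in Trem2-/- arrays and 157 to 215 in WT arrays. That of 7 endothelial markers was 170 to 195 in Trem2-/- arrays and 169 to 213 in WT arrays.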
